A study of Mus musculus with 23 samples.

Results

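Transcript levels of 9 genes for secreted and surface antagonists of WNT signaling were examined in mouse colon. The genes are *Notum*, *Wif1*, *Dkk2*, *Dkk3*, *Sfrp1*, *Sfrp2*, *Sfrp5*, *Frzb* and *Apcdd1*, and they were taken by symbol from the 55449 genes of the deposited table. All 9 were found.

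Colon RNA was sequenced from male C57BL/6 Cdx2Apcf/w mice on a high-fat diet with 60% of energy from fat, which were colonized with *Bacteroides fragilis* after antibiotics. In these mice Cre recombinase is made under the *Cdx2* promoter, which is active in gut epithelium, and removes the single floxed allele of the tumor suppressor *Apc*. All groups carried this genotype, so the data hold no mice with intact *Apc*. BF BSHlow is strain 638R with an empty vector, and BF BSHhigh is the same strain with a *bsh* gene, for bile salt hydrolase, from strain NCTC9343. The mice were 6 to 8 weeks old at the start. There were 4 BF BSHlow and 4 BF BSHhigh libraries of normal colon at 2 weeks, 4 and 4 of non-tumor tissues at 12 weeks, and 4 BF BSHlow and 3 BF BSHhigh libraries of tumors at 12 weeks. The labels number the samples within each group and do not say that each came from its own mouse, nor whether a tumor and a non-tumor sample came from the same mouse, so p-values measure the spread between these samples.

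WNT ligands bind Frizzled receptors together with LRP5 or LRP6 at the cell surface, which keeps β-catenin from being degraded and switches on its target genes. The antagonists act at or outside the cell surface: some bind the ligand, some block LRP5 and LRP6, and *Notum* removes the lipid that a WNT ligand needs. APC belongs to the complex that degrades β-catenin inside the cell, below the step where these antagonists act, and some of the antagonists are themselves known target genes of β-catenin in intestinal tumors.

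Total expected counts were between 12401388 and 17903008 per library (median 15874872). The unit of level is CPM, that is a count relative to library size, after TMM scaling of all 23 libraries together. *Apc*, the gene that the Cre recombinase targets, was between 8.75 and 28.6 CPM in the 7 tumors. It was between 87.7 and 190 CPM in the 8 non-tumor tissues and between 67.4 and 136 CPM at week 2, so that the tumors did not overlap with the other tissues. Among the tumors it was at 8.75 to 12.3 CPM for BF BSHlow and at 12.5 to 28.6 CPM for BF BSHhigh, without overlap. Epithelial markers were present in all libraries. Replicate 4 of the BF BSHlow non-tumor tissues stood apart from the other non-tumor tissues in several antagonists, and values without it are given for these genes. The columns of the 3 BF BSHhigh tumors carry no replicate number of their own, and these libraries are called a, b and c.

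Promoter sequences of 5 of the 9 genes are in the RefSeq table used here (GRCm38.p6), each 250 bases before and 50 after the start in RefSeq. For *Wif1* and *Frzb* that start differs from the one in the gene coordinates given further on, which are of GENCODE M21. The promoters were searched on both strands for CTTTGAT and CTTTGAA, the preferred sites of TCF and LEF factors that partner with β-catenin. Their shared core CTTTG, which lies within both, was searched as well. The promoters of *Wif1* and *Dkk2* are shown because both genes were far higher in tumors. Capitals mark the core, on the strand printed.
*Wif1* promoter, chr10:121033754-121034053, plus strand: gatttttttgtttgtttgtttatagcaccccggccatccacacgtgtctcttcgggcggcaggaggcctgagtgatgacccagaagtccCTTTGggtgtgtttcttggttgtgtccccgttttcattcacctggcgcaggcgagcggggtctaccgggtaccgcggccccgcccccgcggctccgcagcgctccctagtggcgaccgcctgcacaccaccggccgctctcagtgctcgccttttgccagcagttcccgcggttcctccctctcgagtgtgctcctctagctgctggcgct
*Dkk2* promoter, chr3:132085042-132085341, plus strand: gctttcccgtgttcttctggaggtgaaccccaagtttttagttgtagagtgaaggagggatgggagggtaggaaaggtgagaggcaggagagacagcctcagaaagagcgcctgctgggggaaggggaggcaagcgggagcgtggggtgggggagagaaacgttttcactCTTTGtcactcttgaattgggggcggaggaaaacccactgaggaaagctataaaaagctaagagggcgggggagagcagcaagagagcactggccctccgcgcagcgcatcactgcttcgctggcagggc
Each holds 1 match to the core, as does the *Frzb* promoter, while those of *Sfrp2* and *Sfrp5* hold 0. The core is in 53.9% of the 32851 promoters of the table, and CTTTGAT or CTTTGAA is in 8.65% of them and in 0 of these 5.

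The question in the comparison of tumor with non-tumor tissue was how the antagonists stand in tumors, where *Apc* RNA was lower. Of the 9 genes, 5 were higher in tumors and 2 were lower by the quasi-likelihood test of edgeR over 7 tumors and 8 non-tumor tissues. A gene passed when its Benjamini-Hochberg adjusted p-value was under 0.05 and its log2 fold change was beyond 1 in either direction. *Notum*, *Wif1*, *Dkk2*, *Dkk3* and *Apcdd1* rose and *Sfrp1* and *Sfrp5* fell, while *Sfrp2* and *Frzb* did not pass. *Sfrp5* entered the test through the non-tumor tissues, where it is higher, so that its call is not independent of the filter. *Notum* reached the filter's count level in 7 of 7 tumors and in 3 of 8 non-tumor tissues. Among all 16454 genes tested, 16.4% were higher and 18.4% were lower. The median log2 fold change was 2.23 over the 9 genes and 0.04 over all genes. In this bulk RNA, a change in the number of cells of a type and a change in RNA per cell cannot be told apart.

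**Figure D1:**
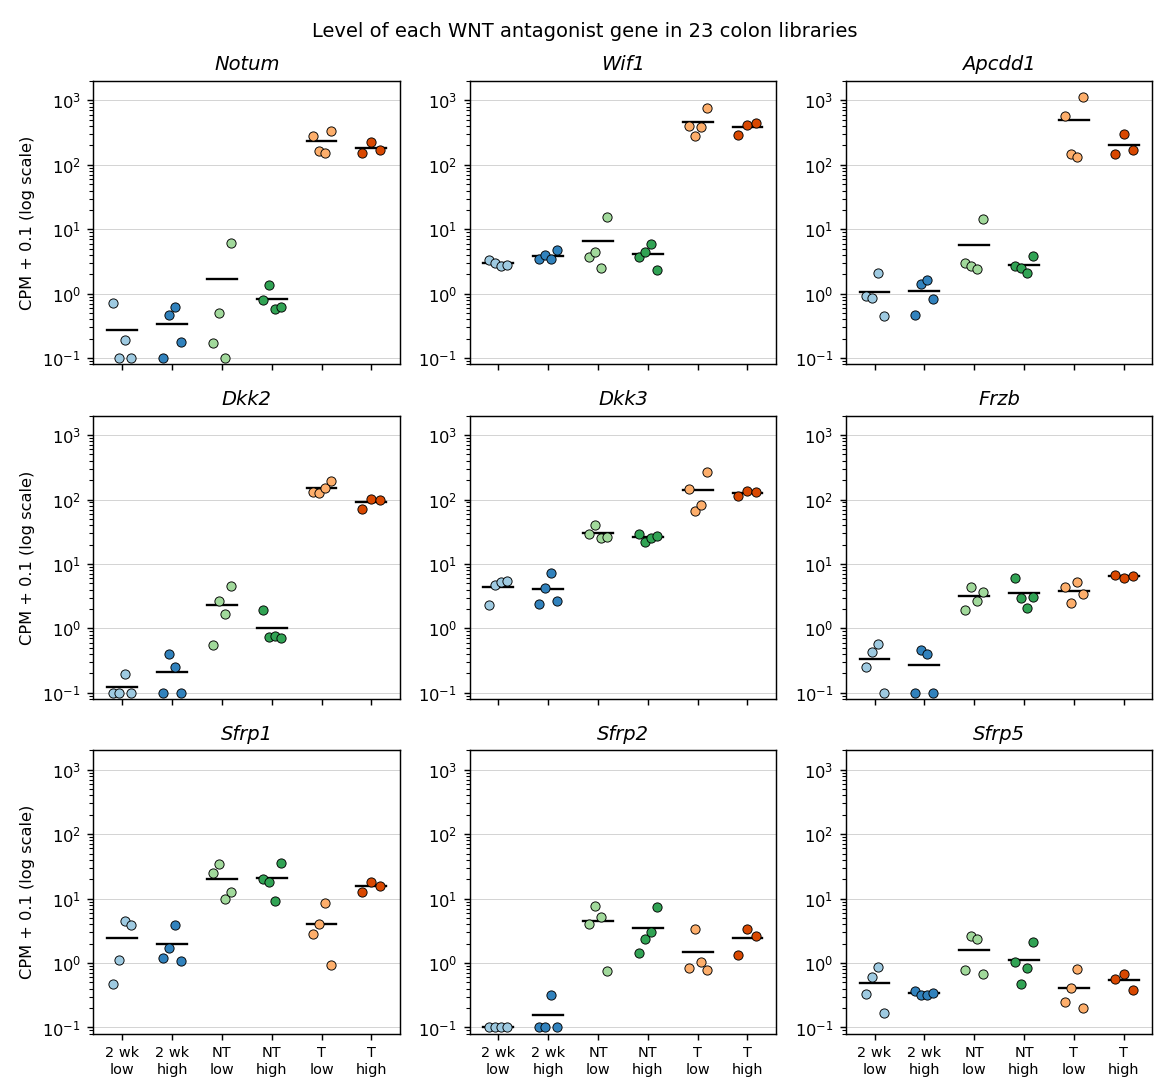
Level of each gene (CPM + 0.1, log scale) in 23 libraries. Each point is 1 library and each line the mean of a group: normal colon at 2 weeks (2 wk), non-tumor tissue (NT) and tumor (T) at 12 weeks, for BF BSHlow (low) and BF BSHhigh (high). For *Notum*, *Wif1*, *Apcdd1*, *Dkk2* and *Dkk3* the 7 tumors sit above the 16 other libraries, and for *Sfrp1* the 4 BF BSHlow tumors sit below all non-tumor tissues.

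*Notum* codes for a secreted enzyme that removes the palmitoleate lipid from WNT ligands and so inactivates them. It was at 279, 163, 155 and 338 CPM in the BF BSHlow tumors and at 150, 226 and 171 CPM in the BF BSHhigh tumors. In non-tumor tissues it was at 0.0741, 0.401, 0 and 5.94 CPM for BF BSHlow and at 0.688, 1.25, 0.485 and 0.524 CPM for BF BSHhigh. The lowest tumor was thus over the highest non-tumor tissue, which was replicate 4 of BF BSHlow. The log2 fold change was 7.53 (SE 0.61, adjusted p = 6.81e-08 by the quasi-likelihood test of edgeR), a fitted fold of 185. Without replicate 4 of the BF BSHlow non-tumor tissues it was 9.13 (SE 0.37), a fitted fold of 560. *Notum* reached the filter's count level in 7 of 7 tumors and in 3 of 8 non-tumor tissues, so its fold rests on few counts in the non-tumor tissues, 146 over the 8 libraries against 30561 in the 7 tumors.

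*Wif1* codes for WNT inhibitory factor 1, a secreted protein that binds WNT ligands directly. Its levels were 394, 283, 390 and 770 CPM in BF BSHlow tumors and 289, 412 and 451 CPM in BF BSHhigh tumors. The non-tumor tissues of BF BSHlow were at 3.63, 4.35, 2.39 and 15.6 CPM and those of BF BSHhigh at 3.56, 4.42, 5.76 and 2.25 CPM. All tumors were above all non-tumor tissues, and the log2 fold change was 6.34 (SE 0.42, adjusted p = 1.05e-08 by the quasi-likelihood test of edgeR). Without replicate 4 of the BF BSHlow non-tumor tissues it was 6.80 (SE 0.31).

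*Apcdd1* codes for a membrane glycoprotein that binds WNT ligands and LRP5 and was first described as a gene that β-catenin activates. It had the widest spread among tumors of the 5 genes that rose. The BF BSHlow tumors were at 577, 149, 135 and 1115 CPM and the BF BSHhigh tumors at 147, 303 and 170 CPM. Non-tumor tissues were between 2.00 and 3.82 CPM in 7 libraries and at 14.3 CPM in replicate 4 of BF BSHlow. The groups did not overlap, and the log2 fold change was 6.36 (SE 0.60, adjusted p = 3.15e-07 by the quasi-likelihood test of edgeR), and 6.91 (SE 0.57) without that library.

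*Dkk2* and *Dkk3* belong to the Dickkopf family of secreted proteins. *Dkk2* binds LRP5 and LRP6 and can block or, in some settings, activate the pathway, while the place of *Dkk3* in WNT signaling is less settled. *Dkk2* was at 129, 126, 149 and 192 CPM in BF BSHlow tumors and at 71.4, 101 and 99.6 CPM in BF BSHhigh tumors. In non-tumor tissues it was between 0.445 and 4.39 CPM, with the highest value again in replicate 4 of BF BSHlow. Its log2 fold change of 6.30 (SE 0.33, adjusted p = 1.76e-09 by the quasi-likelihood test of edgeR) had the smallest adjusted p-value of the 9 genes, and without that library it was 6.57 (SE 0.30).

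*Dkk3* was already well detected in non-tumor tissues, at 25.6 to 40.1 CPM for BF BSHlow and at 22.2 to 29.4 CPM for BF BSHhigh. It was at 144, 65.9, 82.7 and 264 CPM in BF BSHlow tumors and at 111, 133 and 132 CPM in BF BSHhigh tumors. The tumors lay above the non-tumor tissues without overlap, by less than for the other risen genes (log2 fold change 2.23, SE 0.25, adjusted p = 1.63e-06 by the quasi-likelihood test of edgeR). These 5 genes were the members whose tumors were all above the non-tumor tissues, which holds for 22.1% of all genes tested.

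*Sfrp1*, *Sfrp2*, *Sfrp5* and *Frzb* code for secreted Frizzled-related proteins, which carry a Frizzled-like domain and bind WNT ligands away from their receptors. None of them passed as higher in tumors over both colonizations. *Sfrp1* was at 25.3, 33.8, 9.89 and 12.5 CPM in BF BSHlow non-tumor tissues and between 8.97 and 35.3 CPM in those of BF BSHhigh (median 19.0). In tumors it was at 2.70, 4.002, 8.30 and 0.831 CPM for BF BSHlow and at 12.4, 18.3 and 15.6 CPM for BF BSHhigh. The BF BSHlow tumors lay below all non-tumor tissues, and below those of BF BSHlow as 27.7% of all genes did, and the BF BSHhigh tumors lay within their range. The log2 fold change over both colonizations was -1.39 (SE 0.41, adjusted p = 0.00707 by the quasi-likelihood test of edgeR).

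*Sfrp5* was low throughout, at 0.374 to 2.52 CPM in non-tumor tissues and at 0.0977 to 0.716 CPM in tumors, so that the ranges overlapped. Its 155 counts in 8 non-tumor tissues stood against 54 in 7 tumors (log2 fold change -1.70, SE 0.50, adjusted p = 0.00697 by the quasi-likelihood test of edgeR). It reached the filter's count level in 6 of 8 non-tumor tissues and in 1 of 7 tumors. *Sfrp2* was between 0.645 and 7.68 CPM in non-tumor tissues and between 0.684 and 3.31 CPM in tumors, with a log2 fold change of -1.09 (SE 0.51) that did not pass (adjusted p = 0.0710 by the quasi-likelihood test of edgeR). It passed with DESeq2 (adjusted p = 0.0385) and without replicate 4 of the BF BSHlow non-tumor tissues (0.0204), replicate 1 of the BF BSHhigh non-tumor tissues (0.0472) or replicate 2 of the BF BSHlow tumors (0.0154). *Frzb* was between 1.85 and 6.00 CPM in non-tumor tissues and between 2.36 and 6.62 CPM in tumors, and its log2 fold change of 0.56 (SE 0.25, adjusted p = 0.0604 by the quasi-likelihood test of edgeR) did not pass.

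Per length, the order of the genes differed between the tissues. Divided by the exon length of each gene, the mean level in tumors was 176 CPM per kb for *Wif1*, 87.9 for *Notum*, 39.7 for *Dkk3*, 33.5 for *Dkk2* and 28.8 for *Apcdd1*, and it was between 0.196 and 2.03 for the 4 Frizzled-related genes. In non-tumor tissues *Dkk3* led with 8.35 CPM per kb, followed by *Sfrp1* with 4.68, *Wif1* with 2.16 and *Sfrp2* with 1.80. *Notum*, *Dkk2* and *Apcdd1* were there at 0.486, 0.428 and 0.319 CPM per kb, the lowest of the 9.

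In GRCm38 coordinates, the genes lie on 8 chromosomes, and only *Dkk2* and *Sfrp2* share a chromosome. *Notum* is at chr11:120653788-120661175 on the minus strand, where 2 antisense genes overlap it, and *Wif1* is at chr10:121033960-121100650 on the plus strand. *Dkk2* is at chr3:132085292-132180304 and *Sfrp2* at chr3:83766321-83774316, both on the plus strand. An antisense gene overlaps *Sfrp2* as well. *Dkk3* is at chr7:112116017-112159057 and *Frzb* at chr2:80411970-80447625, both on the minus strand. *Sfrp1* is at chr8:23411502-23449632 on the plus strand, *Sfrp5* at chr19:42197971-42202252 on the minus strand and *Apcdd1* at chr18:62922231-62961179 on the plus strand. The strand setting of the counting is not given in the sources used here, so reads of *Notum* and *Sfrp2* and of their antisense neighbours may be mixed. All counts of the 9 genes were whole numbers.

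Within each colonization, the same 5 genes were higher in tumors. The groups compared share no library between the colonizations. The log2 fold changes for BF BSHlow and BF BSHhigh were 7.14 (SE 0.83) and 7.92 (SE 0.90) for *Notum*, and 6.11 (SE 0.58) and 6.56 (SE 0.61) for *Wif1*. They were 6.00 (SE 0.45) and 6.59 (SE 0.49) for *Dkk2*, 2.20 (SE 0.34) and 2.27 (SE 0.36) for *Dkk3*, and 6.45 (SE 0.84) and 6.26 (SE 0.86) for *Apcdd1*. The largest adjusted p-values of these were 6.43e-05 for BF BSHlow and 0.000116 for BF BSHhigh by the quasi-likelihood test of edgeR, both for *Dkk3*. Of all genes, 16.7% were higher and 19.5% lower in BF BSHlow tumors, and 14.6% were higher and 14.8% lower in BF BSHhigh tumors.

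Without replicate 4 of the BF BSHlow non-tumor tissues, the BF BSHlow log2 fold changes were 10.34 for *Notum*, 7.04 for *Wif1* and 7.56 for *Apcdd1*. Without replicate 4 of the BF BSHlow tumors, that of *Apcdd1* was 5.65. All of these remained past the thresholds.

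The lower genes passed in BF BSHlow alone. *Sfrp1* fell by 2.38 on the log2 scale (SE 0.57, adjusted p = 0.00222 by the quasi-likelihood test of edgeR) and *Sfrp5* fell by 2.24 (SE 0.68, adjusted p = 0.00991). *Sfrp5* reached the filter's count level in 1 of 4 BF BSHlow tumors and in 3 of 4 BF BSHlow non-tumor tissues, and it entered the test through the latter. Without replicate 3 of the BF BSHlow tumors these decreases were larger, with log2 fold changes of -3.05 and -3.02. In BF BSHhigh, the log2 fold change was -0.41 (SE 0.58, adjusted p = 0.567) for *Sfrp1* and -1.17 (SE 0.73, adjusted p = 0.186) for *Sfrp5* by the same test. The difference between the colonizations did not pass for either gene. *Sfrp2* was at -1.64 (SE 0.70, adjusted p = 0.0531) in BF BSHlow, where 6 of the alternatives carried it past the threshold. Without replicate 2 of the BF BSHlow tumors it was at -2.47 (adjusted p = 0.0104 by edgeR). *Frzb* was at 0.87 (SE 0.37, adjusted p = 0.0593 by edgeR) in BF BSHhigh and passed only without replicate 1 of the BF BSHhigh non-tumor tissues, at 1.27 (adjusted p = 0.00741).

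**Figure D2:**
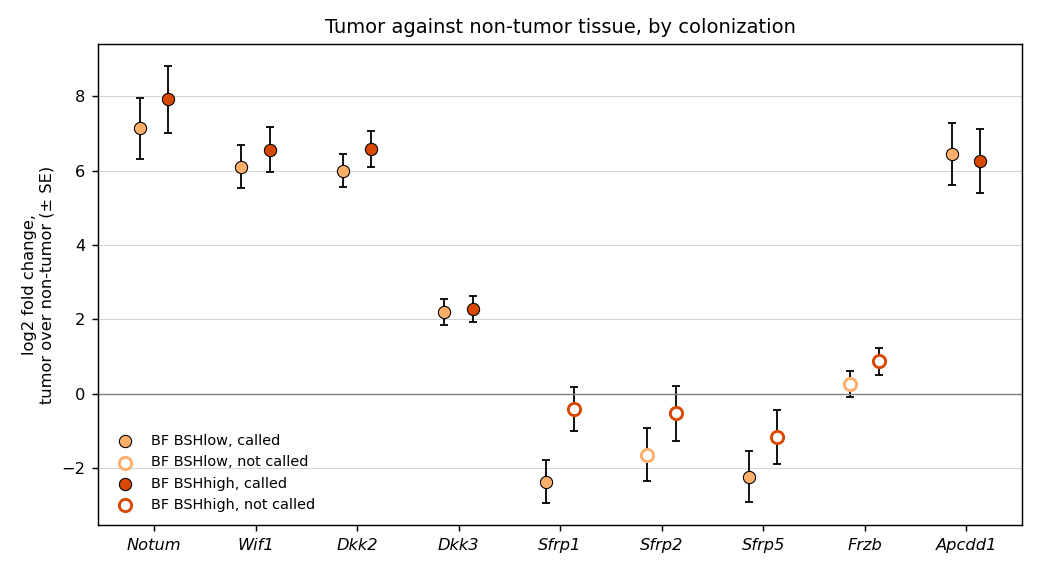
Log2 fold change of tumor over non-tumor tissue for each gene (points) with its standard error (bars), for BF BSHlow (4 tumors and 4 non-tumor tissues) and BF BSHhigh (3 and 4). Filled points passed both thresholds, an adjusted p-value under 0.05 and a log2 fold change beyond 1. *Notum*, *Wif1*, *Dkk2*, *Dkk3* and *Apcdd1* are filled in both, and *Sfrp1* and *Sfrp5* in BF BSHlow.

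Markers of other cell types moved with tissue too. All 9 smooth muscle markers were lower in tumors, with a summed level of 157 to 402 CPM against 1631 to 9003 CPM in non-tumor tissues, and 7 of 8 markers of enteric neurons and glia were lower. The summed level of 5 mature colonocyte markers was 14.3 to 616 CPM in tumors and 1662 to 3842 CPM in non-tumor tissues, and all 5 were lower. Of 9 fibroblast markers 3 were higher (*Pdgfra*, *Col1a1*, *Col1a2*) and 3 lower (*Lum*, *Dpt*, *Pi16*). Their summed level was 1544 to 3523 CPM in tumors and 363 to 3492 CPM in non-tumor tissues. Squamous epithelial markers summed to 29.8 to 145 CPM in tumors and to 1.38 to 3.27 CPM in non-tumor tissues. All 3 that were tested, *Krt14*, *Krt13* and *Krt4*, were higher. *Krt5* and *Trp63* of that list were too low to be tested. Their means in BF BSHlow tumors were 0.0632 and 0.0489 CPM. In the non-tumor tissues other than replicate 4 of BF BSHlow they were 0.205 and 0.026 CPM. Endothelial markers summed to 164 to 207 CPM in tumors and to 48.5 to 110 CPM in non-tumor tissues, with 2 of 4 higher. All 3 markers of interstitial cells of Cajal were lower (75.8 to 138 CPM against 271 to 390 CPM). The 6 general epithelial markers summed to 3636 to 6355 CPM in tumors and to 7102 to 9486 CPM in non-tumor tissues, with 1 higher and 2 lower. The part of these cell types in the levels of the antagonists was not tested.

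**Figure D3:**
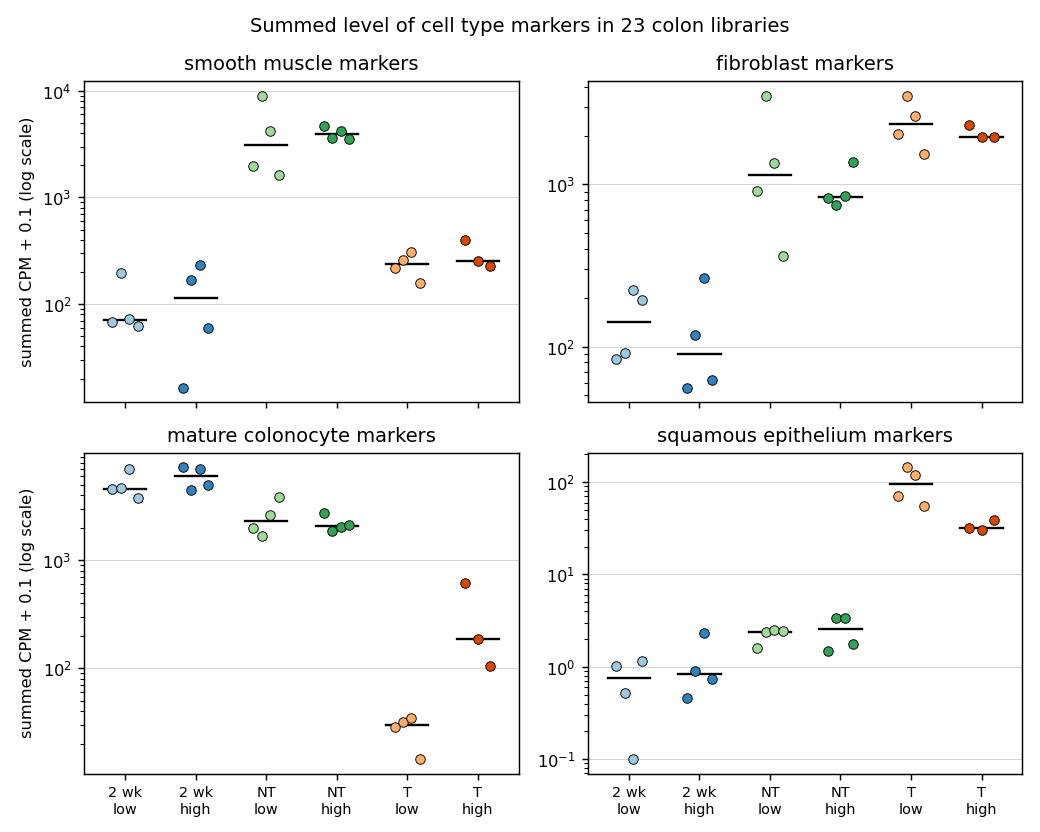
Summed level (CPM + 0.1, log scale) of 9 smooth muscle, 9 fibroblast, 5 mature colonocyte and 5 squamous epithelium markers. Each point is 1 library, each line the median of a group, and groups are named as in the plot of gene levels by library. Smooth muscle markers are highest in non-tumor tissues (1631 to 9003 CPM), and summed squamous markers are highest in tumors (29.8 to 145 CPM). Of the squamous markers, *Krt5* and *Trp63* were too low to be tested.

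Other genes of the pathway were read from lists. Of 15 β-catenin target genes, 13 were higher in tumors. The list median was a log2 fold change of 2.83. Among them were *Mmp7*, a metalloproteinase (6.93, SE 0.68), *Sp5*, a transcription factor (6.32, SE 0.44), *Prox1*, a homeobox factor (5.99, SE 0.34), and *Nkd1*, an inhibitor acting on Dishevelled (5.45, SE 0.29).

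Of 14 other secreted or surface inhibitors, 10 were tested, 4 were higher and 3 lower. *Rnf43*, a ubiquitin ligase that removes Frizzled receptors, was at 187 to 312 CPM in tumors and at 26.8 to 51.1 CPM in non-tumor tissues (log2 fold change 2.68, SE 0.11). *Igfbp4*, a binding protein of insulin-like growth factors that can also block WNT receptors, was higher by 3.01 on the log2 scale (SE 0.28), and *Tpbg*, a membrane inhibitor also known as WAIF1, by 2.70 (SE 0.19). *Sfrp4*, a further Frizzled-related gene, was lower (log2 fold change -5.49, SE 0.92), with 0.371 to 24.6 CPM in non-tumor tissues and at most 0.382 CPM in tumors.

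Of 21 genes for WNT ligands and their secretion, 16 were tested, 9 were higher and 2 lower. The ligand genes *Wnt10a* (log2 fold change 6.78, SE 0.61), *Wnt7b* (6.63, SE 0.52), *Wnt7a* (6.36, SE 0.55) and *Wnt6* (6.12, SE 0.50) had the largest changes. *Wnt7a* and *Wnt7b* had at most 5 counts in any non-tumor library, so their folds rest on the tumors.

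Of 15 receptor genes 3 were higher and 3 lower, with *Fzd10* (5.15, SE 0.44) and *Fzd3* (2.26, SE 0.28) up and *Ror1* (-2.45, SE 0.20) and *Fzd5* (-2.38, SE 0.19) down. All 5 tested genes of R-spondins, which strengthen WNT signaling, and of their Lgr receptors passed. *Lgr6* (9.52, SE 0.57) and *Lgr5*, a marker of intestinal stem cells (2.86, SE 0.30), were higher, and *Rspo1* (-6.35, SE 0.75) and *Rspo3* (-2.95, SE 0.43), which stromal cells make, were lower. *Lgr6* had at most 10 counts in any non-tumor library and *Rspo1* at most 1 count in any tumor, so the size of these changes is uncertain. For *Lgr6* it was 7.27 in BF BSHlow and 11.76 in BF BSHhigh. The largest adjusted p-value among the genes named from these lists was 8.87e-05 by the quasi-likelihood test of edgeR, for *Sfrp4*.

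**Figure D4:**
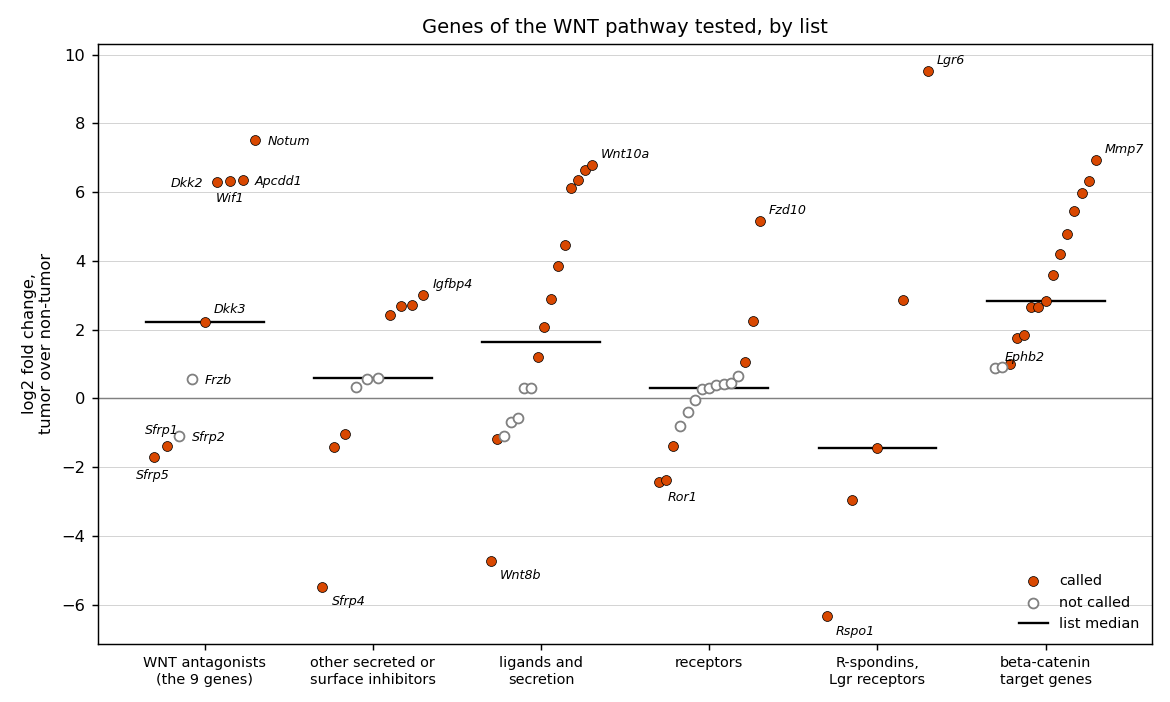
Log2 fold change of tumor over non-tumor tissue (7 against 8 libraries) for each tested gene of 6 lists. Filled points passed both thresholds, an adjusted p-value under 0.05 and a log2 fold change beyond 1, and lines are list medians. Of the β-catenin target genes 13 of 15 are filled and above 0, and the 9 antagonists fall on both sides of 0.

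The question of BF BSHhigh against BF BSHlow was whether bile salt hydrolase activity of the colonizing strain moved the antagonists. In tumors, 0 of 8 tested genes passed by the quasi-likelihood test of edgeR (0.476% of 15325 genes did), and 1 passed with DESeq2. By edgeR, 3 had an unadjusted p-value under 0.05, as had 1946 of all 15325 genes. *Sfrp5* was too low to be tested. These comparisons use the same BF BSHlow and BF BSHhigh tumors as the tumor and non-tumor comparisons above.

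*Sfrp1* was higher in all 3 BF BSHhigh tumors (12.4 to 18.3 CPM) than in the 4 BF BSHlow tumors (0.831 to 8.30 CPM). Its log2 fold change was 1.96 (SE 0.59, unadjusted p = 0.0107, adjusted p = 0.210 by the quasi-likelihood test of edgeR), and it was the gene that DESeq2 called (adjusted p = 0.0152). Over all alternatives, its log2 fold change was between 1.62 and 2.61 and its adjusted p-value between 0.0152 and 0.462. The value of 2.61 came without replicate 3 of the BF BSHlow tumors.

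*Dkk2* was lower in the BF BSHhigh tumors (71.4 to 101 CPM) than in the BF BSHlow tumors (126 to 192 CPM), with a log2 fold change of -0.73 (SE 0.19, adjusted p = 0.141 by the quasi-likelihood test of edgeR). Over all alternatives its adjusted p-value was between 0.0149, with DESeq2, and 0.477, and its change stayed under the fold threshold. *Frzb* was higher, at 5.99 to 6.62 CPM against 2.36 to 5.10 CPM (log2 fold change 0.73, SE 0.28, adjusted p = 0.322). These were the 3 genes whose 2 groups of tumors did not overlap, 2 higher and 1 lower, while 11.8% of all genes tested did not overlap.

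The other genes overlapped. *Apcdd1* was at -1.29 (SE 0.75, adjusted p = 0.542 by edgeR), and at -0.50 without replicate 4 of the BF BSHlow tumors. *Notum* was at -0.38 (SE 0.31), *Wif1* at -0.28 (SE 0.34), *Dkk3* at -0.17 (SE 0.44) and *Sfrp2* at 0.75 (SE 0.61), with adjusted p-values of 0.663 to 0.906 by edgeR. Without replicate 2 of the BF BSHlow tumors, *Sfrp2* was at 1.56 (adjusted p = 0.219 by edgeR). Of the other WNT pathway genes, 0 of 56 tested passed by edgeR, with 13 at an unadjusted p-value under 0.05 (1946 of all 15325 genes). DESeq2 was read for the 9 antagonists only.

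Beside these values, mature colonocyte markers summed to 105 to 616 CPM in the BF BSHhigh tumors and to 14.3 to 34.7 CPM in the BF BSHlow tumors, and *Slc26a3* and *Aqp8* of that list passed. Squamous markers summed to 29.8 to 38.9 CPM and to 54.6 to 145 CPM. Markers of enteric neurons and glia summed to 19.8 to 61.2 CPM and to 5.13 to 10.8 CPM, with none called. Smooth muscle markers overlapped between the groups, at 227 to 402 CPM and 157 to 309 CPM. *Apc* was at 12.5 to 28.6 CPM in the BF BSHhigh tumors and at 8.75 to 12.3 CPM in the BF BSHlow tumors. The part of these cell types and of *Apc* in the levels of *Sfrp1*, *Dkk2* and *Frzb* was not tested.

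In non-tumor tissues, 0 of 8 tested genes passed by the quasi-likelihood test of edgeR, 0 had an unadjusted p-value under 0.05, and DESeq2 called 0. *Sfrp1* was at 20.4 ± 11.2 CPM (SD, n = 4) for BF BSHlow and at 20.6 ± 10.9 CPM (SD, n = 4) for BF BSHhigh. Leaving out replicate 4 of BF BSHlow moved the log2 fold change of *Wif1* from -0.70 to 0.21 and of *Apcdd1* from -1.04 to 0.04. That of *Dkk2* moved from -1.28 to -0.74, and none of them passed in either fit. All 9 genes overlapped between the groups, where 5.38% of the genes tested did not, and 0 of the 14933 genes tested passed by edgeR (1377 had an unadjusted p-value under 0.05, and DESeq2 called 48 higher and 14 lower). The difference of the BF BSHhigh effect between tumor and non-tumor tissues passed for 0 of 9 genes by edgeR, with 1 at an unadjusted p-value under 0.05, and 0 by DESeq2. It passed for 0.978% of all genes, and 1580 of 16454 genes had an unadjusted p-value under 0.05 by edgeR. For *Sfrp1* it was 1.96 on the log2 scale (SE 0.80, adjusted p = 0.419 by the quasi-likelihood test of edgeR), for *Dkk2* 0.58 (SE 0.64) and for *Frzb* 0.61 (SE 0.51). For *Notum* it was 0.78 (SE 1.19), and -2.42 (SE 0.89, adjusted p = 0.327 by edgeR) without replicate 4 of the BF BSHlow non-tumor tissues. Without that library it also went from 0.45 to -0.48 for *Wif1*, from 0.58 to 0.04 for *Dkk2* and from -0.20 to -1.31 for *Apcdd1*.

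In normal colon at week 2, only *Wif1*, *Dkk3*, *Sfrp1* and *Apcdd1* were high enough to be tested, and 0 of them passed by the quasi-likelihood test of edgeR, 0 had an unadjusted p-value under 0.05, and DESeq2 called 0. Of all genes, 0.00727% passed, and 935 of 13752 had an unadjusted p-value under 0.05 by edgeR. *Wif1* was at 3.36, 3.83, 3.34 and 4.65 CPM for BF BSHhigh and at 3.26, 2.92, 2.56 and 2.67 CPM for BF BSHlow. The groups did not overlap (adjusted p = 0.786 by edgeR), as was the case for 3.64% of genes tested.

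Non-tumor tissues at 12 weeks were compared with normal colon at 2 weeks. Time on diet and colonization, age and the tissue label all differ between them and cannot be told apart. Of 8 genes tested 7 passed as higher by edgeR, where 18.5% of 15532 genes were higher and 8.02% lower. *Wif1* was the tested gene that did not pass, at 2.25 to 15.6 CPM at week 12 and 2.56 to 4.65 CPM at week 2 (log2 fold change 0.64, SE 0.33, adjusted p = 0.103 by the quasi-likelihood test of edgeR). If replicate 4 of the BF BSHlow non-tumor tissues was left out, it was at 0.18 (SE 0.20). *Dkk2*, *Sfrp2* and *Frzb* reached the filter's count level in 0 of 8 week 2 libraries and entered the test through the week 12 tissues, and *Sfrp5* reached it in 1 of 8, so that the count of 7 supports nothing by itself. *Notum* did not pass the filter, with 146 counts over the week 12 tissues and 22 at week 2.

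*Dkk3* was at 2.20 to 7.20 CPM at week 2 and at 22.2 to 40.1 CPM in the week 12 tissues (log2 fold change 2.73, SE 0.22, adjusted p = 7.76e-08 by the quasi-likelihood test of edgeR). *Sfrp1* was at 0.379 to 4.45 CPM and at 8.97 to 35.3 CPM (3.26, SE 0.46). *Apcdd1* was at 0.352 to 1.99 CPM and at 2.00 to 14.3 CPM (1.97, SE 0.45, and 1.42 without replicate 4 of the BF BSHlow non-tumor tissues). In these 3 genes and in *Dkk2*, *Sfrp2* and *Frzb* the week 2 libraries lay below the week 12 tissues, as in 14.6% of all genes tested.

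*Sfrp2* was nearly absent at week 2, with 3 counts in 8 libraries, all in replicate 3 of BF BSHhigh, against 474 in 8 week 12 tissues. The ratio of counts per total count was 154 (95% Clopper-Pearson interval 52.4 to 750), which covers counting error only. For *Dkk2* 7 counts stood against 200, a ratio of 27.9 (13.3 to 70.2), and for *Frzb* 20 against 409, a ratio of 19.95 (12.8 to 33.0). For *Sfrp5* 30 counts stood against 155, a ratio of 5.04 (3.39 to 7.72), and the libraries overlapped.

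Stromal markers moved in the same direction. All 9 smooth muscle markers (16.4 to 234 CPM at week 2, 1631 to 9003 CPM at week 12), all 9 fibroblast markers (55.8 to 265 CPM and 363 to 3492 CPM), all 8 markers of enteric neurons and glia and all 4 endothelial markers were higher at week 12. Of 15 β-catenin target genes, 14 were tested, 2 were higher by edgeR (*Nkd1* and *Lef1*), with a list median of 0.11 on the log2 scale. The part of stromal cells in the levels of the antagonists was not tested.

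Over the 6 groups, the order of mean levels put both tumor groups on top for *Notum*, *Wif1*, *Apcdd1*, *Dkk2*, *Dkk3* and *Frzb*. The tumor groups overlapped with each other for *Notum*, *Wif1*, *Apcdd1* and *Dkk3*, and BF BSHlow tumors were above BF BSHhigh tumors for *Dkk2*. For *Frzb* the BF BSHhigh tumors came first, the BF BSHlow tumors overlapped with the non-tumor tissues, and week 2 was below all of these. For *Sfrp1*, *Sfrp2* and *Sfrp5* both non-tumor groups came first and overlapped with each other, and the BF BSHhigh tumors, next for all 3, overlapped with the BF BSHhigh non-tumor tissues.

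The genes with the most similar pattern over 23 libraries were found by Pearson's r of log2 CPM among 14401 genes with a mean of at least 1 CPM. The points share libraries and fall into tissue groups, so that r mostly describes the difference between tissues. Among the closest to *Notum* were *Wnt10a* (0.981) and *Wif1* (0.977), and for *Wif1* the closest were *Gm11978* (0.994), *Prox1* (0.991) and *Zbtb8b* (0.991). For *Dkk2* they were *Nkd1* (0.994), *Pdgfrb* (0.986), which codes for a receptor of platelet-derived growth factor, and *Spock2* (0.984).

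For *Apcdd1* the closest genes were *Ccdc33* (0.982), *Gstm7* (0.980) and *Mdga2* (0.979), and for *Dkk3* *Pcdh7* (0.991), *Pid1* (0.987) and *Pald1* (0.983). The Frizzled-related genes had other neighbours. *Sfrp1* was closest to *Prelp* (0.899), *Slit3* (0.898) and *Mfap4* (0.896), and *Sfrp2* to *Col14a1* (0.948), *Smpd3* (0.942) and *Fads2* (0.940), where *Prelp*, *Mfap4* and *Col14a1* code for matrix proteins. *Frzb* was closest to *Hspb8* (0.965), *Zfp651* (0.959) and *Rgs5* (0.957). The low *Sfrp5* had its highest r with *Ighv2-5* (0.845), an immunoglobulin segment, then with *Pygm* (0.807) and *Fam217b* (0.797).

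Among the 7 tumors, libraries high in 1 of the risen antagonists tended to be high in others. Replicate 4 of the BF BSHlow tumors had the highest *Notum*, *Wif1*, *Dkk2*, *Dkk3* and *Apcdd1* and the lowest *Sfrp1*, *Sfrp2* and *Sfrp5* of all tumors. Over the 7 tumors, r of log2 CPM was 0.99 between *Notum* and *Apcdd1*, 0.87 between *Wif1* and *Dkk3* and 0.33 between *Dkk2* and *Dkk3*. It was -0.71 between *Notum* and *Sfrp1*. With the summed epithelial markers it was -0.95 for *Notum*, and with the summed fibroblast markers it was -0.96 for *Dkk3*. These were picked as the lowest correlations with marker sums among the tumors. Over all 23 libraries the same correlations were -0.86 for *Notum* and 0.92, of opposite sign, for *Dkk3*. The values over tumors describe 7 libraries of 2 colonizations that were scaled together.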

How the data were processed

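RNA of mouse colon was measured in 23 libraries. Per the labels the reads were processed with Cutadapt, STAR, Picard and RSEM on mm10, and the authors deposited expected counts per gene (identifiers of GENCODE M21), which are not normalized. The methods of the study name a stranded mRNA kit and the labels a stranded total RNA kit. The table's header repeats the names of BF BSHlow tumors over 3 columns, which were assigned to the BF BSHhigh tumors as a group, since all 1996 rows compared hold the same values under that group in the study's own table. 1 gene, *Fgf6*, was left out because a cell holds text.

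Expected counts, of which 4.24% were not whole, were rounded. Genes kept by filterByExpr were scaled by TMM and fitted in edgeR 4.0.16 (R 4.3.3) by quasi-likelihood, and p-values were adjusted by Benjamini-Hochberg over every gene fitted. The filter's level lay between 0.607 and 0.648 CPM. Thresholds were 0.05 for the adjusted p-value and 1 for the log2 fold change in either direction. Tumor, non-tumor and interaction contrasts used the 15 libraries of week 12, and the other comparisons used only the groups compared. The log2 CPM values used a prior count of 2. Replicates were compared pairwise by chi-square, and the 33 pairs gave 16.6 to 126 per degree of freedom, far over sampling noise. The tests were checked on simulated counts.

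Alternatives were DESeq2 1.42.0, RLE and upper-quartile scaling, no filter, other sets of libraries, a block for the replicate number, and fits without each library in turn. The genes named are the 9 antagonists, up to 4 genes per pathway list with the largest change among those past both thresholds in tumors against non-tumor tissues, any list gene called between the colonizations, and the 3 genes most like each antagonist, of which 1 is not reported here. The members and lists were chosen with earlier results of these data known. Summaries used Python 3.11.15, pandas 2.3.3 and scipy 1.17.1. Counting intervals are at 95%. Protein sequences and promoters of the other 4 antagonists were not used here.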

Additional observations from a re-analysis of the deposited data

Results flagged for a closer look

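In 5 of 45 sets of 4 libraries, 1 library lay apart from the other 3 in log2 CPM, with a gap to the nearest library over 0.829 of the whole range, where chance flags about 1 in 20. *Apcdd1* in replicate 4 of the BF BSHlow non-tumor tissues had a gap of 0.881 of the range (14.3 CPM against 2.32 to 2.89 CPM in the other 3). *Dkk2* in replicate 1 of the BF BSHhigh non-tumor tissues had a gap of 0.909 (1.81 CPM against 0.599 to 0.667 CPM). *Dkk3* in replicate 1 of BF BSHlow at week 2 had a gap of 0.838 (2.20 CPM against 4.59 to 5.28 CPM). The other 2 have the full range as gap, 1.0, because the other 3 libraries were at 0. They are *Dkk2* in replicate 3 of BF BSHlow at week 2 (0.0948 CPM, a single count) and *Sfrp2* in replicate 3 of BF BSHhigh at week 2 (0.223 CPM, 3 counts).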

How the results depend on the processing

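Over both colonizations, 5 genes were higher in tumors under each alternative run, and 2 or 3 were lower, the third being *Sfrp2*. In BF BSHhigh against BF BSHlow tumors DESeq2 called 1 gene, *Sfrp1*, where edgeR called 0, and the cause was not tested. Between the colonizations, 12 values changed sign over all alternatives in non-tumor tissues and 10 at week 2. In the interaction 11 did, and none of these passed under any alternative. In the other comparisons, leaving out 1 library turned the sign of 3 values that passed nowhere. *Sfrp2* in BF BSHhigh tumors against non-tumor tissues was at 0.11 without replicate 4 of the latter (leave-one-out range -0.86 to 0.11). *Wif1* and *Dkk3* in BF BSHhigh against BF BSHlow tumors were at 0.10 and 0.35 without replicate 4 of the BF BSHlow tumors (ranges -0.45 to 0.10 and -0.40 to 0.35). Counts over all genes moved more in that comparison: 71 higher and 2 lower with edgeR, 575 and 49 with DESeq2, 308 and 12 with no filter, 500 and 10 in the fit with 15 libraries, and 0 to 234 higher when 1 library was left out. In non-tumor tissues DESeq2 called 48 higher and 14 lower genes where edgeR called 0, and at week 2 it called 22 and 8 where edgeR called 1 and 0. The interaction count was 160 higher and 1 lower with edgeR and 377 and 8 with DESeq2. The correlation of same-numbered BF BSHlow tumors and non-tumor tissues was between -0.08 and 0.16. It was the highest for the own number in numbers 1 and 4 and not in 2 and 3. So few samples cannot tell whether replicate numbers pair them. With the replicate block, 5 genes were higher and 3 lower in BF BSHlow tumors, *Notum* at 7.89 and *Sfrp2* at -1.59 (adjusted p = 0.0323 by edgeR), 0 passed between the colonizations in non-tumor tissues and at week 2, and 7 were higher at week 12. The median log2 fold change of all genes in tumors was 0.04 with TMM, -0.01 with RLE, 0.08 with upper-quartile scaling and -0.10 with DESeq2, a shift far under the changes of the 5 risen genes. Depth limits *Sfrp5*, *Notum* outside tumors, and *Dkk2*, *Sfrp2* and *Frzb* at week 2.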

Other observations

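In replicate 4 of the BF BSHlow non-tumor tissues, 4 of the 9 antagonists (*Notum*, *Wif1*, *Dkk2* and *Apcdd1*) were above the 7 other non-tumor tissues, as were 19.5% of the 14933 genes tested in these tissues. Their excess over the mean of those 7 was between 2.17% and 2.60% of the difference between that mean and the mean of the BF BSHlow tumors, for each of these 4 genes. These genes were picked for lying above the others, and *Dkk3*, also higher in tumors, was at -1.97%. The same library was above the 7 others in 6 of 15 β-catenin target genes, in 2 of 14 other inhibitors and in 0 of 5 squamous markers. Over those 6 target genes the excess was between 1.85% and 12.8%. Where it was computed for target genes outside the 6, it ran from -27.2% (*Sox9*) to 9.97% (*Ascl2*). *Prox1* was at 9.62 CPM against at most 4.55 CPM, with an excess of 2.02%, and *Mmp7* at 11.9 CPM against at most 6.56 CPM, with 4.03%. *Axin2*, at 22.9 CPM, lay within the range of the others (17.7 to 31.4 CPM). Of the other antagonists, *Sfrp2* was lowest of the non-tumor tissues in that library, at 0.645 CPM against 1.31 to 7.68 CPM. Of the non-tumor tissues it also had the lowest summed level of smooth muscle (1631 CPM), fibroblast (363 CPM) and immune (25.8 CPM) markers and the highest of mature colonocyte markers (3842 CPM). What sets this library apart was not tested.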
